A study of Homo sapiens with 6 samples.

Results

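The genes described here are 52 listed genes of steroid hormone biology: 27 enzymes and receptors that make, convert, inactivate or sense steroids, and 25 genes known to respond to androgens. The cells were MEC-1, an established line grown from the B cells of a chronic lymphocytic leukemia, with and without knockdown of UGT2B17. UGT2B17 is an enzyme that attaches glucuronic acid to testosterone, dihydrotestosterone and other small molecules, which marks them for removal. Genes were taken from the list by symbol, and a gene counted as measured where at least 1 probe set on the array was annotated to that symbol alone. This held for 47 of the 52 genes, 25 enzymes and receptors and 22 response genes, out of 18404 genes tested. HSD3B7, SRD5A3, FKBP5, SORD and TMPRSS2 were not analysed on a probe set of their own.

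The 6 arrays, 1 per sample, came from 3 samples of MEC-1 cells with a UGT2B17 knockdown shRNA and 3 samples with scrambled shRNA. Both shRNAs were delivered by lentivirus, and both groups grew in RPMI with fetal calf serum, without phenol red and without antibiotics. Phenol red is a dye with weak estrogen activity. The labels name no added hormone and do not say whether the serum was stripped of steroids. They also do not give the number of hairpin constructs, or whether a group is a pool or a clone. An effect of lower UGT2B17 and an effect of the hairpin on other transcripts therefore cannot be told apart. The replicates are called independent but not separate cultures, so a p-value here reflects the spread among these samples, which may be technical. In such bulk RNA, fewer cells of a kind and less RNA per cell cannot be told apart.

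Steroid hormones are made from cholesterol, which the STAR protein carries into mitochondria, where CYP11A1 cuts its side chain. Further enzymes then switch the molecule between active and inactive forms: hydroxysteroid dehydrogenases turn hydroxyl groups into ketones or back, reductases of the SRD5A family turn testosterone into the stronger androgen dihydrotestosterone, and sulfotransferases and UDP-glucuronosyltransferases conjugate steroids for storage or removal. Active steroids bind nuclear receptors, which then attach to DNA elements near their target genes. Several of these receptors, that for glucocorticoids among them, bind the same kind of element, an inverted pair of 6-base arms set 3 bases apart.

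UGT2B17 itself was lower in the knockdown. The probe set named for this gene and no other read 3.95, 3.69 and 3.91 log2 units on scrambled replicates 1 to 3, and 3.19, 3.27 and 3.17 on knockdown replicates 1 to 3. The groups did not overlap. The log2 fold change, always knockdown minus scrambled here, was −0.64 ± 0.08 (SE), or 64.4% of the scrambled level (limma, Benjamini-Hochberg adjusted p = 0.00654). Brighter probe sets that the annotation shares between UGT2B17 and relatives fell further. The one shared with UGT2B15 read 8.02, 8.05 and 8.12 on the scrambled arrays and 6.55, 6.78 and 6.83 on the knockdown arrays, 2.54-fold lower (adjusted p = 0.0137 in limma over all probe sets). The one shared with UGT2B7, UGT2B10, UGT2B11 and UGT2B15 read 9.21, 9.16 and 9.66 against 7.86, 7.64 and 8.02, 2.84-fold lower (adjusted p = 0.0265). How much of either signal came from UGT2B17 and how much from the other genes cannot be told apart. The exact two-sided permutation p for UGT2B17 alone was 0.1, the smallest that 3 against 3 arrays allow, and it applies to every gene below whose groups did not overlap.

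Pairs of arrays correlated at 0.991 to 0.996 over 32321 probe sets. Scrambled replicate 3 stood apart: it had the largest root mean square deviation from its group mean, 0.138 log2 units against 0.0771 to 0.112 for the other arrays, and the lowest array weight. It was the highest or lowest of the 6 arrays for 53.1% of all genes tested, so the values it moves most are also given without it. Of 12 B cell markers listed, 9 were measured, and their mean level per array was 9.93 to 10.01 log2 units with scrambled shRNA and 10.07 on each knockdown array. The 11 markers of T and NK cells averaged 5.41 to 5.49 with scrambled shRNA and 5.50 to 5.61 with the knockdown. The 8 of monocytes averaged 5.31 to 5.40 and 5.26 to 5.32, the 10 of epithelium and fibroblasts 6.58 to 6.73 and 6.69 to 6.71, and the 7 measured of 9 for prostate epithelium 5.25 to 5.41 and 5.24 to 5.44. Their part in the results was not tested. The deposited values carry no detection call, so none of these can be called absent. Of the markers, TCL1A in the B cell list and KRT18 in the epithelial list were higher in the knockdown and no other passed.

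Among the 47 measured genes, SRD5A1 fell and PLPP1 rose with the knockdown, and the other 45 did not pass over all genes. This is 4.26% of the measured members, against 3.61% of all 18404 genes that passed (limma, adjusted p under 0.05), so the count of changed genes lay near the background; in the 2 directions, 1.92% of all genes rose and 1.69% fell. By group, 1 of 25 enzymes and receptors passed (4.0%) and 1 of 22 response genes (4.55%). The median log2 fold change was 0.06 for enzymes and receptors and 0.03 for response genes, against −0.002 for all genes. Without scrambled replicate 3 these medians were 0.02 and −0.03, and SRD5A1 and PLPP1 alone passed among the members, while 4.12% of all genes did. The median absolute log2 fold change was 0.09, 0.12 and 0.09 for enzymes and receptors, response genes and all genes. For 44 of the 47 genes the 95% interval of the log2 fold change lay wholly inside −0.5 to 0.5; the exceptions were HSD17B10, HSD17B14 and PLPP1. For 35 of the 47 it included 0. Only 16 of the 47 genes were brighter than the median of all genes tested. The processing of the deposited values, RMA, compresses changes of dim probe sets. A narrow interval of a dim gene therefore does not show that its RNA stayed the same.

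**Figure D1:**
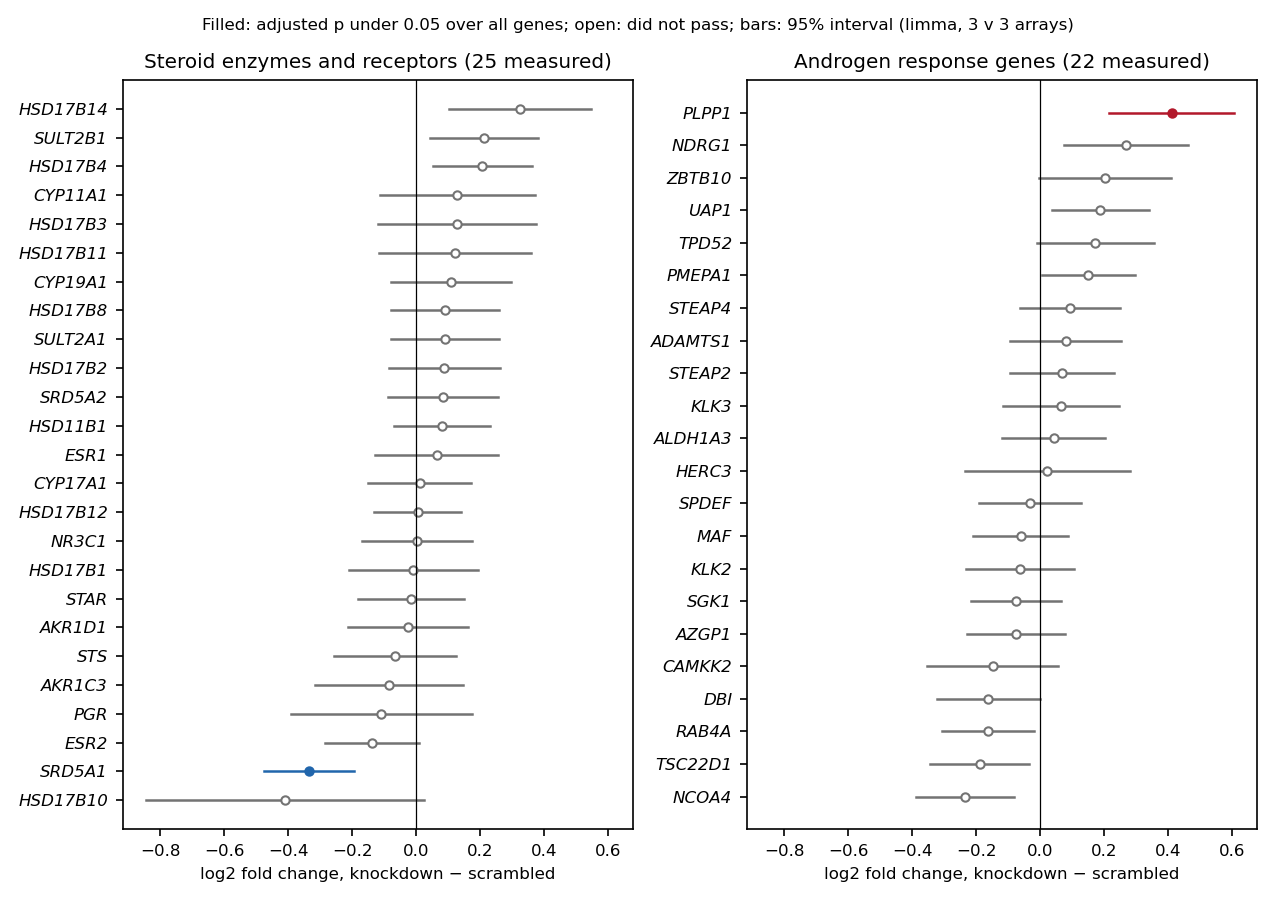
Log2 fold change (knockdown minus scrambled, x axis) of the 47 measured genes (y axis), with 95% intervals from limma over 3 against 3 arrays. Filled points passed over all genes (SRD5A1 at −0.33 and PLPP1 at 0.41), open points did not, and HSD17B10 has the widest interval, −0.84 to 0.03.

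SRD5A1, the steroid reductase isozyme that converts testosterone to dihydrotestosterone in many tissues outside the prostate, fell by a small and even step. Its values were 9.28, 9.21 and 9.24 log2 units on scrambled replicates 1 to 3 and 8.94, 8.88 and 8.91 on knockdown replicates 1 to 3. All knockdown arrays were lower, with means of 9.24 ± 0.04 (SD, n = 3) and 8.91 ± 0.03 (SD, n = 3). The log2 fold change was −0.33 ± 0.06 (SE; 95% interval −0.47 to −0.20), a 1.26-fold lower level (limma, adjusted p = 0.0231). The direction held throughout, but the call was lost when any of knockdown replicates 1 to 3 or scrambled replicate 1 or 2 was left out, with adjusted p of 0.0804, 0.117, 0.101, 0.0510 and 0.0785. It held without scrambled replicate 3, at −0.34 and an adjusted p of 0.0274. The log2 fold change over all 6 omissions ran from −0.35 to −0.32.

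The isozyme SRD5A2, the main form in prostate, did not show that step. It read 5.31, 5.31 and 5.22 on the scrambled arrays and 5.47, 5.37 and 5.24 on the knockdown arrays, with overlapping groups and a log2 fold change of 0.08 (95% interval −0.09 to 0.26), which was 0.05 without scrambled replicate 3. The intervals of SRD5A1 and SRD5A2 did not overlap, but the difference between these genes was not tested. SRD5A2 was also much dimmer, at percentile 33.5 of all probe sets by mean value against 83.7 for SRD5A1. Since RMA compresses changes of dim probe sets, its narrow interval does not show that its RNA stayed the same. AKR1D1, which reduces the same ring bond of steroids in the other orientation, read 4.15 to 4.37 with scrambled shRNA and 4.11 to 4.31 with the knockdown. Its log2 fold change was −0.02 (−0.21 to 0.16), and 0.04 without scrambled replicate 3.

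The 250 bases before the RefSeq start of SRD5A1 are shown because it is the changed enzyme. They lie at chr5:6633190-6633439 on the plus strand of GRCh38.p14, written 5′ to 3′ in lower case because neither the receptor element nor either of its arms was found there.
SRD5A1: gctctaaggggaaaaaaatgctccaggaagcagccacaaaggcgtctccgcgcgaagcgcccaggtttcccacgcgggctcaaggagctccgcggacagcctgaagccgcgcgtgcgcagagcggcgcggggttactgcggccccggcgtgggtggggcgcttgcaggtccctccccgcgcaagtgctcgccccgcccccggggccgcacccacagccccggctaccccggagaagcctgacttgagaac
The window of 300 bases that ends 50 bases after this start is 71.0% G and C. PLPP1, the changed response gene, is not among the promoter windows used here.

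Enzymes at the entry to steroid synthesis showed no change that passed. STAR read 5.55 to 5.73 with scrambled shRNA and 5.61 to 5.68 with the knockdown. CYP11A1 read 6.01, 5.73 and 5.56 on the scrambled arrays and 5.91, 5.93 and 5.86 on the knockdown arrays, a log2 fold change of 0.13 (−0.11 to 0.37) that was 0.03 without scrambled replicate 3. CYP17A1, which makes androgen precursors, had a log2 fold change of 0.01 (−0.15 to 0.17). CYP19A1, the aromatase that turns androgens into estrogens, read 4.07 to 4.35 and 4.25 to 4.36, a log2 fold change of 0.11 (−0.08 to 0.30) that was 0.04 without scrambled replicate 3. The groups overlapped for all 4 genes. HSD11B1, which regenerates active cortisol from cortisone, read 4.57 to 4.73 against 4.71 to 4.76, with a log2 fold change of 0.08 (−0.07 to 0.23), and 0.04 without scrambled replicate 3.

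The hydroxysteroid dehydrogenases that act on carbon 17, which set the balance between testosterone and androstenedione and between estradiol and estrone, were the largest family, with 9 members measured and none passing. At an unadjusted p under 0.05 in limma there were 2 of these 9, HSD17B14 and HSD17B4. This is 22.2%, against 16.0% of the 25 enzymes and receptors and 18.2% of all genes. HSD17B14, which oxidises estradiol, read 5.996, 5.83 and 5.60 on the scrambled arrays and 6.13, 6.18 and 6.09 on the knockdown arrays. The groups did not overlap, and scrambled replicate 3 was the lowest array. Its log2 fold change was 0.33 ± 0.10 (SE; adjusted p = 0.118 in limma) and 0.22 without scrambled replicate 3 (adjusted p = 0.153). Without scrambled replicate 1 it was 0.42 and passed, at an adjusted p of 0.0430.

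HSD17B4, a peroxisomal enzyme of fatty acid breakdown that also oxidises estradiol, read 9.40, 9.36 and 9.50 on the scrambled arrays and 9.56, 9.65 and 9.67 on the knockdown arrays. All knockdown values lay above all scrambled values, by a log2 fold change of 0.21 ± 0.07 (SE) that did not pass in limma (adjusted p = 0.151). HSD17B10, a mitochondrial dehydrogenase that is also a subunit of mitochondrial RNase P, read 9.48, 9.71 and 10.38 against 9.50, 9.42 and 9.40. The scrambled mean was set by replicate 3: the log2 fold change of −0.41 (−0.84 to 0.03) was −0.15 without that array.

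The other 6 members of the family had log2 fold changes between −0.01 and 0.13, with overlapping groups. HSD17B1, which makes estradiol from estrone, read 7.49, 7.39 and 7.23 against 7.34, 7.26 and 7.49. HSD17B3, the testis enzyme that makes testosterone, read 4.47, 4.18 and 4.10 against 4.48, 4.23 and 4.43. HSD17B12, a reductase of long-chain fatty acid elongation, read 9.93 to 9.95 against 9.91 to 9.98. HSD17B2, HSD17B8 and HSD17B11 had log2 fold changes of 0.09, 0.09 and 0.12. Without scrambled replicate 3, the lowest array for HSD17B1, HSD17B2, HSD17B3, HSD17B8 and HSD17B11, their log2 fold changes were −0.08, 0.03, 0.05, 0.05 and 0.02. Scrambled replicate 3 was the lowest of the 6 arrays for 6 of the 9 members and the highest for HSD17B10. Among all 25 enzymes and receptors it was the lowest for 14 and the highest for 3, while among all genes it was the lowest for 24.2% and the highest for 28.9%. Its part in the small positive median of the group was not tested beyond the medians without it, given above.

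**Figure D2:**
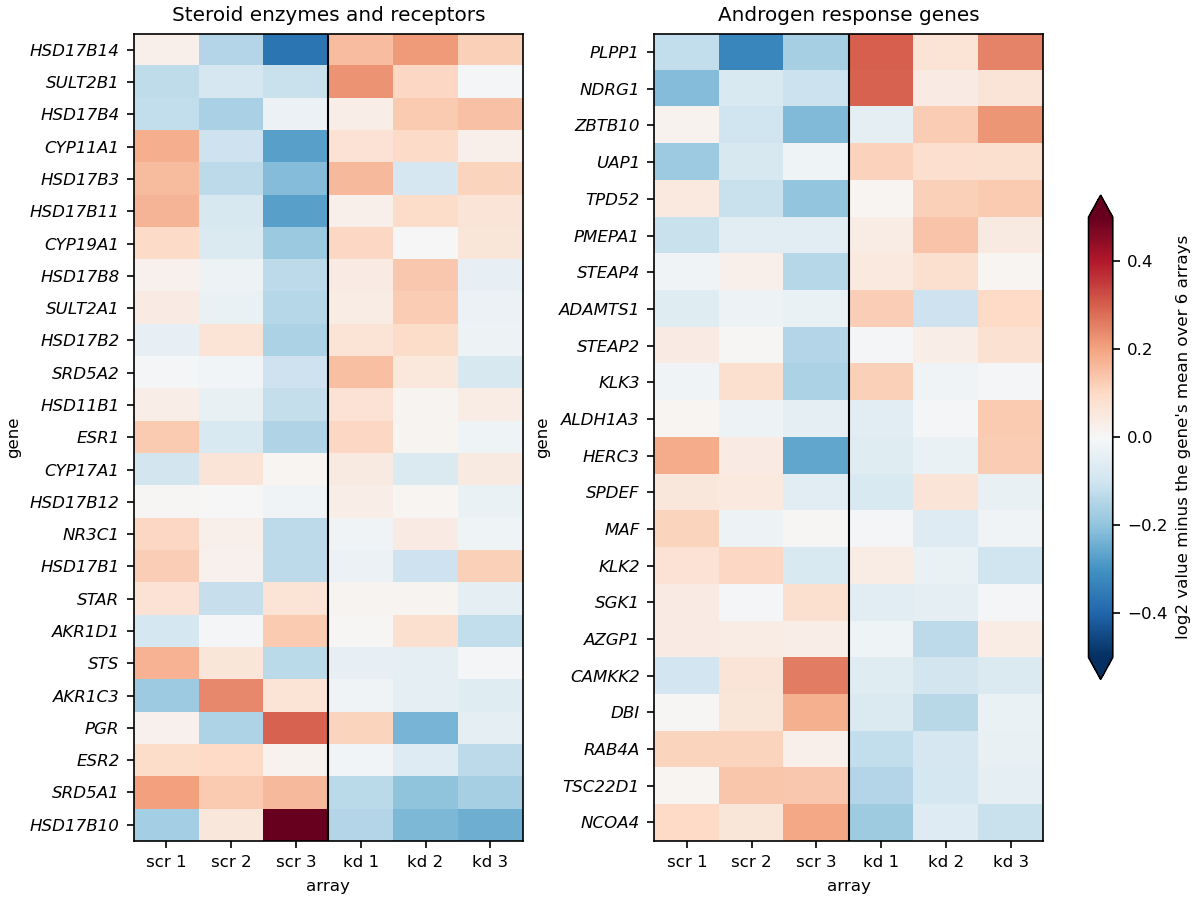
Each array's log2 value minus the gene's mean over the 6 arrays (colour; blue below, red above the mean), for scrambled (scr) and knockdown (kd) arrays in columns and genes in rows, ordered by log2 fold change. Scrambled replicate 3 is lowest for 14 of the 25 enzymes and receptors, and HSD17B10 stands out as the gene it raises most, at 10.38.

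Of the enzymes that handle steroid sulfates, SULT2B1, which sulfates cholesterol and other 3-hydroxysteroids, read 6.05, 6.09 and 6.07 on the scrambled arrays and 6.40, 6.28 and 6.17 on the knockdown arrays. The groups did not overlap, with a log2 fold change of 0.21 ± 0.07 (SE) that did not pass (limma, adjusted p = 0.172). SULT2A1, which sulfates the adrenal androgen DHEA, read 3.66 to 3.84 against 3.77 to 3.93, a log2 fold change of 0.09 that was 0.04 without scrambled replicate 3. STS, the sulfatase that frees steroids from their sulfates, read 8.91, 8.80 and 8.60 against 8.70, 8.69 and 8.73. Its log2 fold change of −0.07 (−0.26 to 0.13) was −0.15 without scrambled replicate 3 (adjusted p = 0.273). AKR1C3, which makes testosterone from androstenedione and also acts on prostaglandins, read 3.71, 4.14 and 3.96 against 3.88, 3.85 and 3.83, with scrambled values on both sides of the knockdown values.

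None of the 4 measured receptors passed. NR3C1, the glucocorticoid receptor, read 10.53, 10.45 and 10.30 on the scrambled arrays and 10.41, 10.47 and 10.41 on the knockdown arrays, a log2 fold change of 0.00 with a 95% interval of −0.17 to 0.17. ESR2, the second estrogen receptor, read 5.37, 5.38 and 5.30 against 5.27, 5.22 and 5.15. Its groups did not overlap, and its log2 fold change of −0.14 (−0.29 to 0.01) did not pass (limma, adjusted p = 0.307). ESR1, the first estrogen receptor, read 5.59, 5.38 and 5.31 against 5.56, 5.47 and 5.44, and its dimmer probe set gave a log2 fold change of 0.15 against 0.06. PGR, the progesterone receptor and itself an estrogen target, read 4.43, 4.25 and 4.70 against 4.52, 4.17 and 4.36. Without scrambled replicate 3, which was the lowest array for NR3C1 and ESR1 and the highest for PGR, the log2 fold changes of these receptors were −0.06, 0.0055 and 0.010.

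Among the androgen response genes, PLPP1 rose. PLPP1 is a membrane phosphatase that removes phosphate from lipids such as phosphatidic and lysophosphatidic acid. It read 6.20, 5.99 and 6.15 log2 units on scrambled replicates 1 to 3 and 6.62, 6.39 and 6.57 on knockdown replicates 1 to 3, with no overlap. The log2 fold change was 0.41 ± 0.09 (SE; 95% interval 0.22 to 0.60), a 1.33-fold higher level (limma, adjusted p = 0.0370). It was 0.43 without scrambled replicate 3, with an adjusted p of 0.0467. The call was lost without knockdown replicate 1, 2 or 3 or scrambled replicate 2, at adjusted p of 0.144, 0.0665, 0.148 and 0.132.

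The kallikreins KLK3 and KLK2, secreted proteases of the prostate and textbook androgen targets, did not pass in either direction. KLK3, the gene of prostate-specific antigen, read 5.85, 5.94 and 5.71 on the scrambled arrays and 5.98, 5.85 and 5.86 on the knockdown arrays, a log2 fold change of 0.06 (−0.12 to 0.25). KLK2 read 5.999, 6.03 and 5.85 against 5.97, 5.89 and 5.83, a log2 fold change of −0.06 (−0.23 to 0.11). The groups overlapped for both genes. The log2 fold change without scrambled replicate 3 was 0.0020 for KLK3 and −0.12 for KLK2. Their upstream sequences are shown because both are textbook androgen targets in which the receptor element was found. Each is the 250 bases before the RefSeq start on the plus strand of GRCh38.p14, at chr19:50854665-50854914 for KLK3 and chr19:50873189-50873438 for KLK2. Capitals mark the match to the element, whose first base lies at −170 from the start of KLK3 and at −176 from that of KLK2.
KLK3: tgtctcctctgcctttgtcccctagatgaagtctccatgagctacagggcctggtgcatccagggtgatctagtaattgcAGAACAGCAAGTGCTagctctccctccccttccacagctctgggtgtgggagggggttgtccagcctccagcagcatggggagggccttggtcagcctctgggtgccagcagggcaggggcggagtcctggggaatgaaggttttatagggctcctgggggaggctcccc
KLK2: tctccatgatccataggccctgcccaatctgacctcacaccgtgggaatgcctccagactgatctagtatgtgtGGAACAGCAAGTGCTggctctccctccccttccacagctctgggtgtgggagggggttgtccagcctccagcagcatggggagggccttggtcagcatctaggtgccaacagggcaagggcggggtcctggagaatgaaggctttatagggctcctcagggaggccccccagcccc
The element searched was AGAACA, any 3 bases and TGTTCT, which reads the same on both strands, with at most 3 mismatches in its 12 fixed letters; the KLK3 match has 2 and the KLK2 match 3. Such a match was present in 4 of the 18 response genes with a promoter window, FKBP5, KLK2, KLK3 and NCOA4. It was present in 3 of the 22 enzymes and receptors with a window, CYP19A1, HSD17B3 and STS. It was also present in 11.0% of all 27305 windows of 300 bases, in 2 of 67 windows of other androgen response genes (2.99%) and in 3 of 25 of glucocorticoid response genes (12%). Of the other genes of synthesis and clearance it was in 6 of 26 windows (23.1%), and of the other receptors, chaperones and cofactors in 3 of 26 (11.5%). The shares differ between lists in both directions from that of all windows, and a match of letters does not show a bound site. A single arm, AGAACA or TGTTCT, was present in 5 of the 40 windows of both gene groups (12.5%) and in 14.9% of all windows.

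FKBP5, a chaperone partner that responds to both androgens and glucocorticoids, was read only through a probe set shared with LOC285847. It gave 8.93, 8.90 and 9.09 on the scrambled arrays and 8.65, 8.77 and 8.79 on the knockdown arrays. The knockdown values were all lower, with a log2 fold change of −0.24 ± 0.08 (SE) that did not pass over all probe sets (limma, adjusted p = 0.265). TMPRSS2, a membrane protease, was read only together with FKBP5 and LOC285847 on a probe set at 4.79 to 4.98 on all arrays, so neither gene can be given alone. SGK1, a kinase that responds to glucocorticoids, read 5.94, 5.88 and 5.98 against 5.84, 5.85 and 5.89, with a log2 fold change of −0.08 (−0.22 to 0.07).

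For 8 of the 22 measured response genes, or 36.4% against 24.8% of all genes, the knockdown arrays lay wholly on one side of the scrambled arrays, 4 higher and 4 lower. For enzymes and receptors this held for 5 of 25, or 20.0%, 3 higher and 2 lower. Among all genes, 11.8% lay wholly higher and 13.1% wholly lower. Besides PLPP1, the response genes on the higher side were NDRG1, UAP1 and PMEPA1, none of which passed. NDRG1, a stress and hypoxia response gene, read 6.04, 6.18 and 6.15 against 6.56, 6.30 and 6.32, a log2 fold change of 0.27 ± 0.09 (SE; limma, adjusted p = 0.136). Its highest value came from knockdown replicate 1. UAP1, which makes the sugar nucleotide UDP-N-acetylglucosamine, read 8.66, 8.76 and 8.82 against 8.96, 8.93 and 8.92, a log2 fold change of 0.19 (0.04 to 0.34; adjusted p = 0.184). PMEPA1, an inhibitor of TGF-beta signalling, read 5.61, 5.67 and 5.67 against 5.76, 5.87 and 5.77, a log2 fold change of 0.15 (adjusted p = 0.263).

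The 4 genes on the lower side were NCOA4, TSC22D1, RAB4A and DBI, and none passed. NCOA4, a receptor coactivator that also delivers ferritin to lysosomes, read 9.63, 9.59 and 9.72 on the scrambled arrays and 9.35, 9.46 and 9.42 on the knockdown arrays. Its log2 fold change of −0.24 ± 0.07 (SE; limma, adjusted p = 0.106) was −0.20 without scrambled replicate 3. TSC22D1, a transcriptional regulator, read 6.99, 7.12 and 7.12 against 6.83, 6.89 and 6.93, a log2 fold change of −0.19. RAB4A, a GTPase of endosome recycling, read 6.83, 6.84 and 6.75 against 6.60, 6.64 and 6.69, a log2 fold change of −0.16. DBI, the acyl-CoA binding protein, which also supports cholesterol import into mitochondria, read 10.08, 10.14 and 10.25 against 10.01, 9.94 and 10.04. Its log2 fold change of −0.16 was −0.11 without scrambled replicate 3. Adjusted p for TSC22D1, RAB4A and DBI were 0.182, 0.220 and 0.268 in limma.

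**Figure D3:**
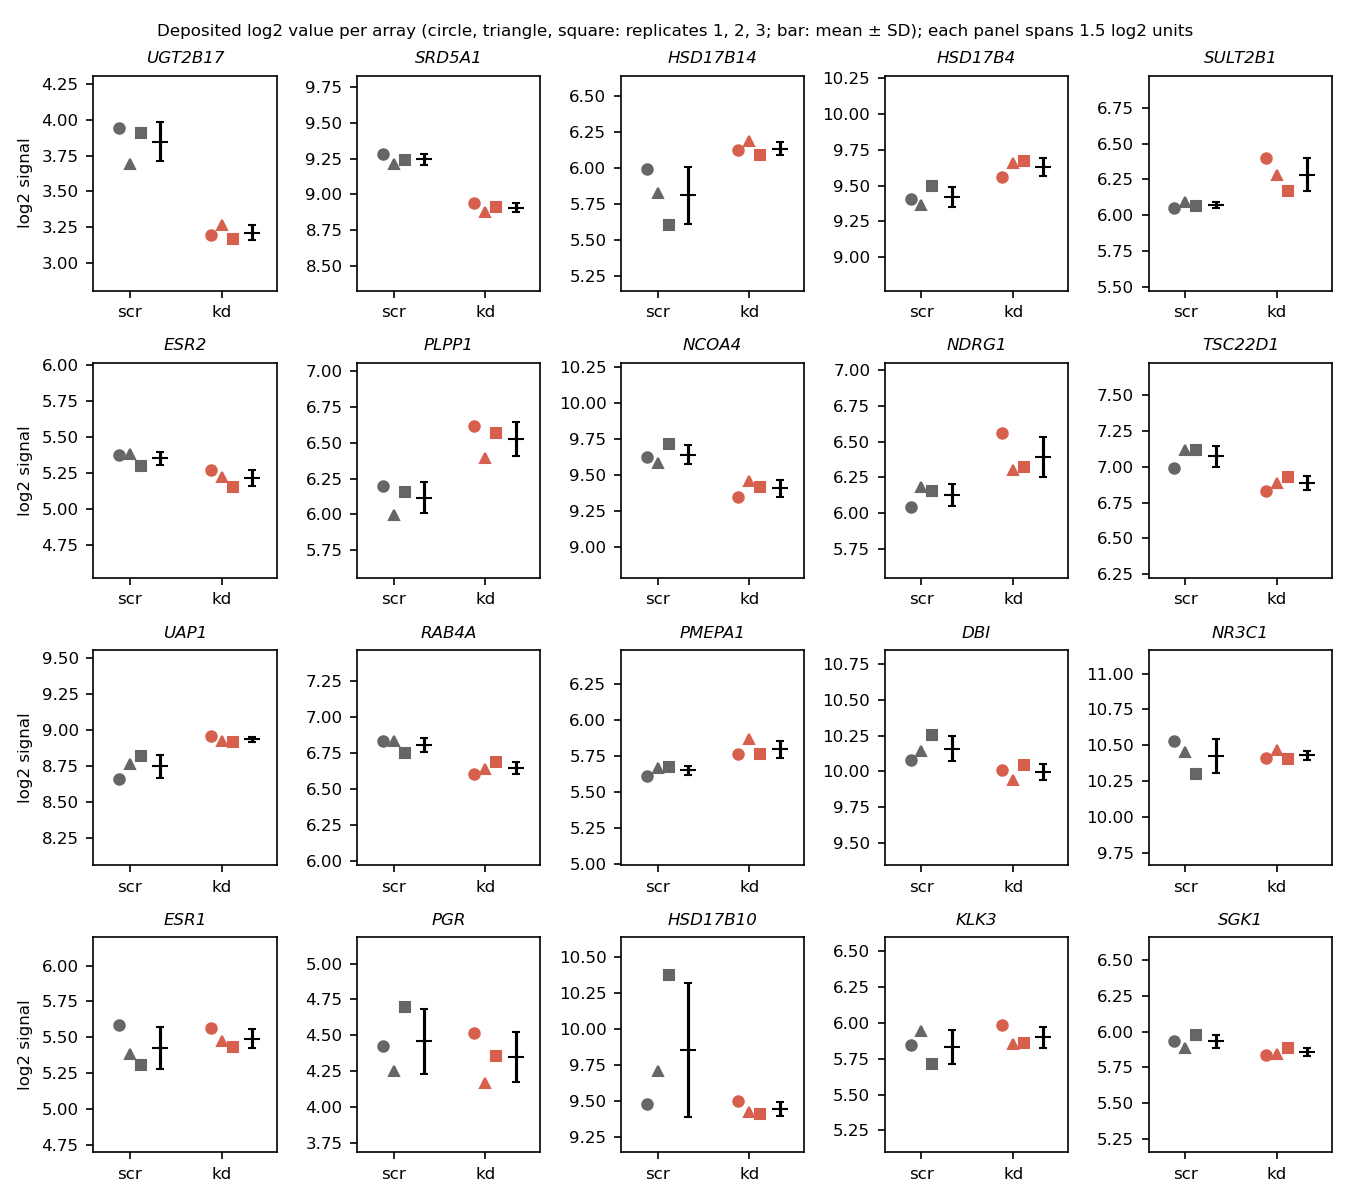
Deposited log2 value (y axis, 1.5 log2 units per panel) of each array for scrambled (scr, grey) and knockdown (kd, red) samples; bars give the mean ± SD over 3 arrays. UGT2B17, the 5 enzymes and receptors and the 8 response genes whose groups do not overlap come first, followed by NR3C1, ESR1, PGR, HSD17B10, KLK3 and SGK1, whose groups overlap.

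The remaining 11 response genes had overlapping groups and log2 fold changes between −0.15 and 0.20. ZBTB10, a zinc finger repressor, read 7.50, 7.39 and 7.27 against 7.44, 7.61 and 7.71, a log2 fold change of 0.20 that was 0.14 without scrambled replicate 3. TPD52, a vesicle trafficking protein, gave 0.17 on its own probe set (0.12 without scrambled replicate 3) and −0.27 on a probe set shared with MRPS28, so its direction is uncertain. CAMKK2, a calcium-dependent kinase upstream of AMPK, read 7.98, 8.13 and 8.33 against 7.98 to 8.01 on the knockdown arrays; its log2 fold change of −0.15 was −0.06 without scrambled replicate 3. The metalloreductases STEAP2 and STEAP4 had log2 fold changes of 0.07 and 0.09, the prostate transcription factor SPDEF −0.03, the transcription factor MAF −0.06 and the secreted glycoprotein AZGP1 −0.08. The protease ADAMTS1, the retinaldehyde dehydrogenase ALDH1A3 and the ubiquitin ligase HERC3 had values of 0.08, 0.04 and 0.02. Values without scrambled replicate 3 were 0.010 for STEAP2, 0.04 for STEAP4, −0.07 for SPDEF, 0.03 for ALDH1A3 and −0.10 for HERC3.

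**Figure D4:**
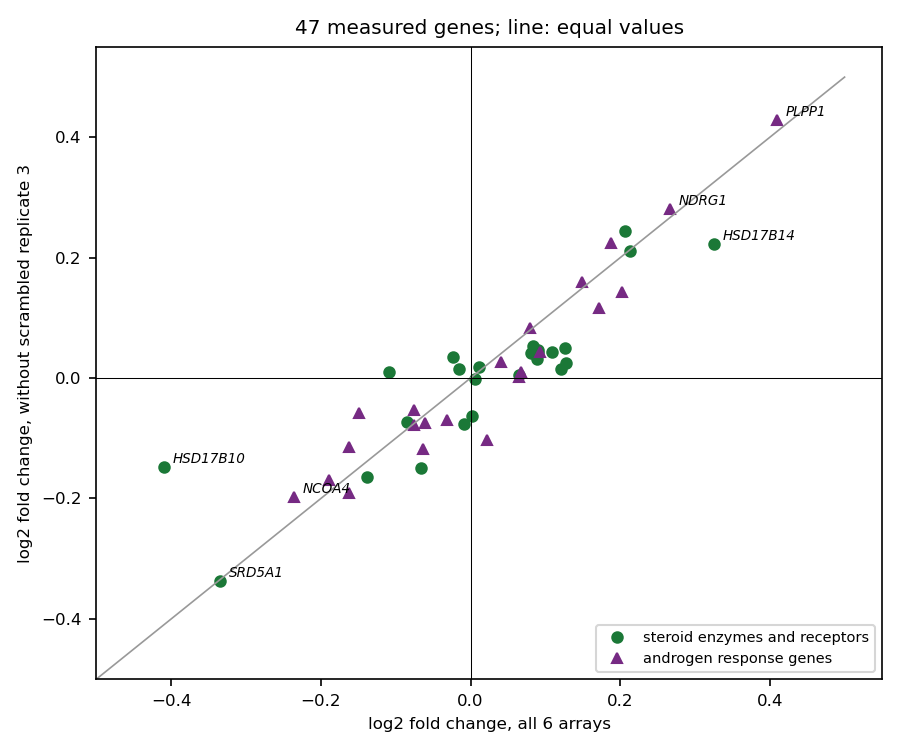
Log2 fold change with all 6 arrays (x axis) against that without scrambled replicate 3 (y axis) for the 47 measured genes; points on the grey line are equal. SRD5A1, PLPP1 and NDRG1 lie near the line, while HSD17B10 moves from −0.41 to −0.15 and HSD17B14 from 0.33 to 0.22.

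Related genes outside the list were read from 4 further lists. Of 34 measured other genes of steroid synthesis and clearance, 1 passed (2.94% against 3.61% of all genes) and 33 did not. CYP11B1, the last enzyme of cortisol synthesis, rose. It read 6.08, 6.06 and 5.94 against 6.48, 6.39 and 6.41, a log2 fold change of 0.40 ± 0.07 (SE; limma, adjusted p = 0.0181). Its close copy CYP11B2 read 5.60 to 5.96 against 5.74 to 5.96; probes of such similar genes may share signal. Genes next in line were the transporter SLCO4A1 at 0.29, H6PD at 0.31, HSD17B6 at 0.25 and CYP1B1 at −0.30, with adjusted p of 0.0535, 0.0627, 0.0661 and 0.0916. SLCO4A1 passed without scrambled replicate 3, at 0.32 (adjusted p = 0.0354). Over all omissions of 1 array its log2 fold change ran from 0.25 to 0.32 and its adjusted p in limma from 0.0354 to 0.183. H6PD supplies the NADPH that HSD11B1 uses, and HSD17B6 converts androstanediol back to active androgen.

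Of 24 measured other receptors, chaperones and cofactors, 1 passed (4.17% against 3.61% of all genes) and 23 did not. GPER1, a membrane receptor that responds to estrogen, rose. It read 8.51, 8.52 and 8.37 against 9.15, 8.98 and 8.97, a log2 fold change of 0.57 ± 0.08 (SE; 1.48-fold; limma, adjusted p = 0.00787), and 0.52 without scrambled replicate 3 (adjusted p = 0.0117). The coactivators NCOA7 and NCOA1 read 0.28 and 0.25 and the SUMO ligase PIAS2 −0.28, with adjusted p of 0.0594, 0.171 and 0.0724. FKBP4, a chaperone partner that helps steroid receptors enter the nucleus, read 9.79, 9.95 and 10.45 against 9.59, 9.62 and 9.60. Its log2 fold change of −0.46 (adjusted p = 0.133) was −0.27 without scrambled replicate 3.

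Of 74 measured other androgen response genes, 4 rose and 4 fell, which is 10.8% against 3.61% of all genes. Of these 74 genes, 52 were brighter than the median of all genes. With only the brighter genes tested, 796 of 9202 genes passed. The part of signal level in the higher share was not tested. The list was chosen with earlier results of these data known, and 2 of its genes, ELL2 and KRT18, were already known to pass. IQGAP2, a scaffold of the actin cytoskeleton, rose most, from 8.53, 8.38 and 8.21 to 9.22, 9.38 and 9.23, a log2 fold change of 0.90 ± 0.09 (SE; 1.87-fold; limma, adjusted p = 0.00286). SEC24D, a coat protein of vesicles leaving the endoplasmic reticulum, rose from 9.92, 9.89 and 9.53 to 10.61, 10.58 and 10.47, by 0.77 ± 0.11 (adjusted p = 0.00834). STEAP1, a relative of STEAP2, rose from 6.61, 6.45 and 6.47 to 6.92, 6.93 and 6.80, by 0.37 ± 0.07 (adjusted p = 0.0291). KRT18, a keratin, rose from 7.15, 7.30 and 7.37 to 7.58, 7.62 and 7.59, by 0.32 ± 0.07 (adjusted p = 0.0494). The groups did not overlap for any of these 4 genes. Those that fell were the apoptosis regulator TNFAIP8 at −0.52, the elongation factor ELL2 at −0.51, the cell cycle kinase CDK6 at −0.40 and cyclin D1, CCND1, at −0.62. Their adjusted p were 0.00677, 0.00620, 0.0183 and 0.0434 in limma. TNFAIP8 read 8.58, 8.55 and 8.66 on the scrambled arrays and 8.02, 8.06 and 8.15 on the knockdown arrays. ELL2 read 10.46, 10.36 and 10.39 against 9.89, 9.85 and 9.94, and CDK6 read 9.56, 9.59 and 9.71 against 9.17, 9.21 and 9.28. The groups of these genes did not overlap either. CCND1 read 8.52, 8.30 and 8.91 against 7.95, 7.995 and 7.92, and its log2 fold change was −0.45 without scrambled replicate 3. KRT18 was the least secure, since it was also lost with arrays centred on the median, where its log2 fold change was 0.30 (adjusted p = 0.0976). Genes next in line were XRCC5 at −0.35, GPD1L at −0.46, RPS6KA3 at 0.29 and DNAJB9 at 0.58, none of which passed (adjusted p 0.0606 to 0.0685). When scrambled replicate 3 was left out, DNAJB9 was at 0.39 and RPS6KA3 at 0.33 and both passed (adjusted p = 0.0331 and 0.0481), and GPD1L was at −0.33. Calls of CCND1, KRT18, CDK6, STEAP1, SEC24D and CYP11B1 were each lost without at least 1 of knockdown replicates 1 to 3, and those of IQGAP2, ELL2, TNFAIP8 and GPER1 held without any single array.

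Of 27 measured glucocorticoid response genes, SGK1 among them, 0 passed in limma, and 10 had an unadjusted p under 0.05, which is 37.0% against 18.2% of all genes. That share was 16.0% for the enzymes and receptors and 36.4% for the androgen response genes. In the other further lists it was 29.4% (synthesis and clearance), 20.8% (receptors, chaperones and cofactors) and 29.7% (other androgen response genes). The glucocorticoid list, too, was chosen with earlier results of these data known. TSC22D3, the leucine zipper protein GILZ, induced by glucocorticoids in lymphocytes, read 8.90, 8.66 and 8.12 against 9.27, 9.19 and 9.19. All knockdown values were higher, with a log2 fold change of 0.66 ± 0.17 (SE; adjusted p = 0.0705). Without scrambled replicate 3 it was 0.44 and passed (adjusted p = 0.0295). BCL2L11, a killer of lymphocytes in the BCL2 family, read 8.73, 8.55 and 8.39 against 8.19, 8.25 and 8.22, a log2 fold change of −0.34 (adjusted p = 0.0776), which was −0.42 and passed without scrambled replicate 3 (adjusted p = 0.0222). LPIN1, a lipid phosphatase, gave 0.25 and NFKBIA, the NF-kappaB inhibitor, −0.47 (−0.31 without scrambled replicate 3), with adjusted p of 0.0841 and 0.0849. Without scrambled replicate 3, 2 of the 27 passed, and in the other further lists 2 of 34, 1 of 24 and 10 of 74.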

How the data were processed

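Per the labels, biotin-labelled total RNA was hybridised to 1 Affymetrix array per sample. The deposited log2 values were made by the authors with RMA, per the submitters' processing notes; no source used here gives its version, library files or build. They were used unchanged. RMA compresses changes of dim probe sets, and quantile normalisation hides shifts shared by most genes.

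Probe sets were named through the platform annotation: 19158 had 1 symbol, 1388 several and 11775 none. The brightest of a gene's single-symbol probe sets was kept (18404 genes). The test was limma's (version 3.58.1, R 4.3.3; lmFit, eBayes, two-sided, Benjamini-Hochberg over all genes, threshold 0.05); SDs are over 3 arrays. The number of arrays limits the precision. On simulated data for 18404 genes the fit recovered 58.1% of genes changed by 0.5 log2 units and 94.9% of those changed by 1. For each gene the simulation gave all arrays the same normal, independent spread. Each run changed fewer genes than passed in these data, all by the same size. The real arrays deviated unequally, by 0.0771 to 0.138 log2 units. For both reasons recovery in these data may differ. Promoter windows (40 of the 52 genes) are from RefSeq, GRCh38.p14. The members and lists were chosen with earlier results of these data known. Values per array are given for members that passed, those whose groups do not overlap, the receptors and the 4 smallest p per group. Of each further list the called genes (per array) and up to 4 others with the smallest p are named, plus the textbook targets FKBP5, KLK3, TSC22D3 and TMPRSS2; other single values illustrate a role or the effect of scrambled replicate 3. Alternatives covered normalisation, filtering, variance prior, array weights, probe set choice, replicate block, threshold and leaving out each array.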

Additional observations from a re-analysis of the deposited data

How the results depend on the processing

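UGT2B17 stayed lower and passed under every alternative that gave it a value; the brighter-gene filter dropped it. With 3 against 3 arrays, a step as small as that of SRD5A1 lies at the limit of what could be called, and p-values change with the set of probe sets tested. With all deposited probe sets tested, 165 of the 32321 probe sets passed, those without a gene symbol or with several included. This is a count of probe sets and is not like the 665 genes as reported. On their main probe sets, 0 of the enzymes and receptors, 0 of the response genes and 4 of the other list genes passed (1, 1 and 10 as reported). With only the brighter genes tested, 0 response genes passed, since PLPP1 was left out by that filter. Array weights put scrambled replicate 3 lowest, at 0.25, and scrambled replicate 2 far highest, at 6.1, with the other arrays at 0.55 to 1.42. The weighted scrambled mean thus rests mostly on scrambled replicate 2. With these weights 3511 genes passed (19.1%), among them 5 enzymes and receptors, 7 response genes and 44 of the other list genes. Leaving out scrambled replicate 3 without weights gave 759 genes. The cause of the higher count was not tested. At an adjusted p under 0.1, 1207 genes and 25 of the other list genes passed. With the replicate number as a block, 367 genes passed and 0 enzymes and receptors (SRD5A1 adjusted p = 0.0685), while the response gene count stayed at 1. Same-numbered arrays did not deviate together (r of −0.05, −0.07 and −0.03), and arrays of different number gave r of −0.04 to 0.10. Deviations from means of 3 arrays cannot show whether the numbers pair the samples. Leaving out 1 array at a time gave 152 to 759 genes, 0 to 1 enzymes and receptors, 0 to 1 response genes and 4 to 15 other list genes; the low counts came without knockdown replicate 1, 2 or 3 or scrambled replicate 2.

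Genes that changed sign were all uncalled. Their log2 fold changes in the fit as reported ran from −0.11 (PGR) to 0.09 (HSD17B2). With array weights the log2 fold change was 0.0024 for AKR1D1, −0.057 for CYP17A1, −0.027 for HERC3, −0.0028 for HSD17B12, −0.0047 for HSD17B2, −0.045 for KLK3, −0.018 for NR3C1, 0.032 for PGR and 0.086 for STAR. With arrays centred on the median it was −0.013 for CYP17A1, −0.0016 for HERC3, −0.018 for HSD17B12 and −0.021 for NR3C1. Over the omissions of 1 array, values ran from −0.20 to 0.015 for AKR1C3, −0.074 to 0.036 for AKR1D1, −0.014 to 0.081 for ALDH1A3, −0.032 to 0.050 for CYP17A1, −0.10 to 0.12 for HERC3, −0.076 to 0.050 for HSD17B1, −0.0097 to 0.024 for HSD17B12, −0.063 to 0.055 for NR3C1, −0.21 to 0.010 for PGR, −0.077 to 0.017 for STAR and −0.15 to 0.0046 for STS.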
